A study of Mus musculus with 6 samples.

Results

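The calpain system was examined through 8 genes among the 54838 in the count tables, namely the proteases Capn1, Capn2, Capn5, Capn7, Capn10 and Capn15, the small regulatory subunit Capns1 and the inhibitor Cast. The members are named genes of 1 protease system, and no cut on a measured value decided which were included. Earlier results of these data were known when the members were chosen. Their RNA was counted in neutrophils that had been sorted out of mouse corneas infected for 24 h with Pseudomonas aeruginosa of the strain PAO1. The groups were neutrophils of IL1a -/- mice, called knockout here, with 3 libraries, and neutrophils of wild-type mice, also with 3 libraries. Both groups were infected, so uninfected cells enter no comparison. The labels give no strain, age, sex or knockout allele, and they call the libraries biological replicates without naming animals, so the spread given here is that between libraries.

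Calpains are calcium-activated cysteine proteases of the cytosol that cut their targets at a few sites and so change, rather than destroy, them. The enzymes of Capn1 (calpain-1) and Capn2 (calpain-2) work as a complex of a large catalytic subunit with the small subunit encoded by Capns1, and calpastatin, the product of Cast, binds and blocks that complex. Calpain cuts the precursor of the cytokine IL-1 alpha, the product of Il1a, to its mature form, and in neutrophils calpains are known for roles in adhesion, spreading and cell death.

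The catalytic centre of these enzymes is built around 1 cysteine, and the coding sequence around it was compared among the 6 proteases. The sequences below run 5′ to 3′ on the coding strand, are taken from the GENCODE M21 transcripts (GRCm38), and have the cysteine codon in capitals.
Capn1: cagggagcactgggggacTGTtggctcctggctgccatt
Capn2: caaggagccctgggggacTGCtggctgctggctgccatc
Capn5: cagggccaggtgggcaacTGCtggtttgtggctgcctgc
Capn10: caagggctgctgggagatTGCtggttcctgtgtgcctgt
Capn15: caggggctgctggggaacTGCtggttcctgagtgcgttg
Capn7: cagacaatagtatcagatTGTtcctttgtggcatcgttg
Counted in the longest open reading frame of each gene, the cysteine was codon 115 in Capn1, 105 in Capn2, 81 in Capn5, 73 in Capn10, 628 in Capn15 and 290 in Capn7. Capn1 and Capn2 shared 34 of these 39 bases and Capn10 and Capn15 shared 31. Capn7 shared the fewest, with 16 to 19 bases in common with each of the others. Identity in so short a window does not give how the whole genes are related. A search of the reading frames against all GENCODE M21 transcripts found no stretch of 100 bases or more at 80% identity or above between any of the 8 members.

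Calpastatin carries repeated inhibitory segments. The longest Cast reading frame was searched for a fixed amino acid pattern of their core, which matched at 3 places, at codons 281, 554 and 691. Repeats that depart from the pattern would be missed, so the matches are not a count of the repeats. The codons of the paired prolines at the centre of each match are in capitals.
Cast, codon 281: actattCCTCCAgagtatagg
Cast, codon 554: acagtgCCTCCTgattatcga
Cast, codon 691: accatcCCCCCTgaatacagg
The Cast reading frame also matched transcripts of 2 other genes, AC122119.1 at 90.9% identity over 2159 of 2367 bases and AC166748.1 at 91.3% over 2160. Their own counts were not analysed here, so the Cast counts are uncertain to the extent that reads of these copies were placed in Cast or were set aside as matching both.

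The libraries held 22855676 to 32295293 gene counts in the knockout and 25721159 to 33626008 in wild type. Il1a, the targeted gene, had 92, 174 and 118 counts in the knockout libraries and 136694, 192428 and 272865 in the wild-type libraries, so every library matched its label. Levels below are in CPM, the count relative to library size after scaling by the TMM method. The neutrophil markers S100a8, S100a9 and Csf3r were abundant throughout, with S100a9 at 13296 ± 897 CPM in the knockout and 14129 ± 1390 CPM in wild type (SD, n = 3 each). The 11 neutrophil markers summed to 25661 to 28667 CPM in the knockout and 27008 to 32016 CPM in wild type, and 0 of them were called. S100a8 and S100a9 made up most of that sum in every library. The lowest of the 11 were Camp, at 10.5 ± 0.9 CPM in the knockout and 8.5 ± 2.4 CPM in wild type, and Ly6g, at 13.2 ± 1.4 CPM in the knockout and 12.7 ± 3.0 CPM in wild type. Knockout replicate 2 stood apart from the other libraries on the first principal component of log2 CPM, at 67.3 against -32.9 to 2.1.

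None of the 7 tested calpain system genes was called different between the genotypes. Across 11924 tested genes, edgeR called 12 (0.101%) at an adjusted p under 0.05, of which 9 (0.0755%) were higher and 3 (0.0252%) lower in the knockout. Of the 7 members that passed the low-count filter 0 were called, and 0 had an unadjusted p under 0.05 (5.99% of tested genes did). DESeq2, which called 0.524% of its genes, called 0 of the 7. Limma-voom also called 0 of the 7, and its share over all genes is not given here. For 11.6% of tested genes the knockout and wild-type libraries did not overlap (6.12% with the knockout higher, 5.48% lower), and for 0 of the 7 members. Capn5 did not pass the filter and was not tested. The median log2 fold change of the 7 was -0.06, with 3 of 7 above 0, beside 0.00455 over all tested genes.

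**Figure D1:**
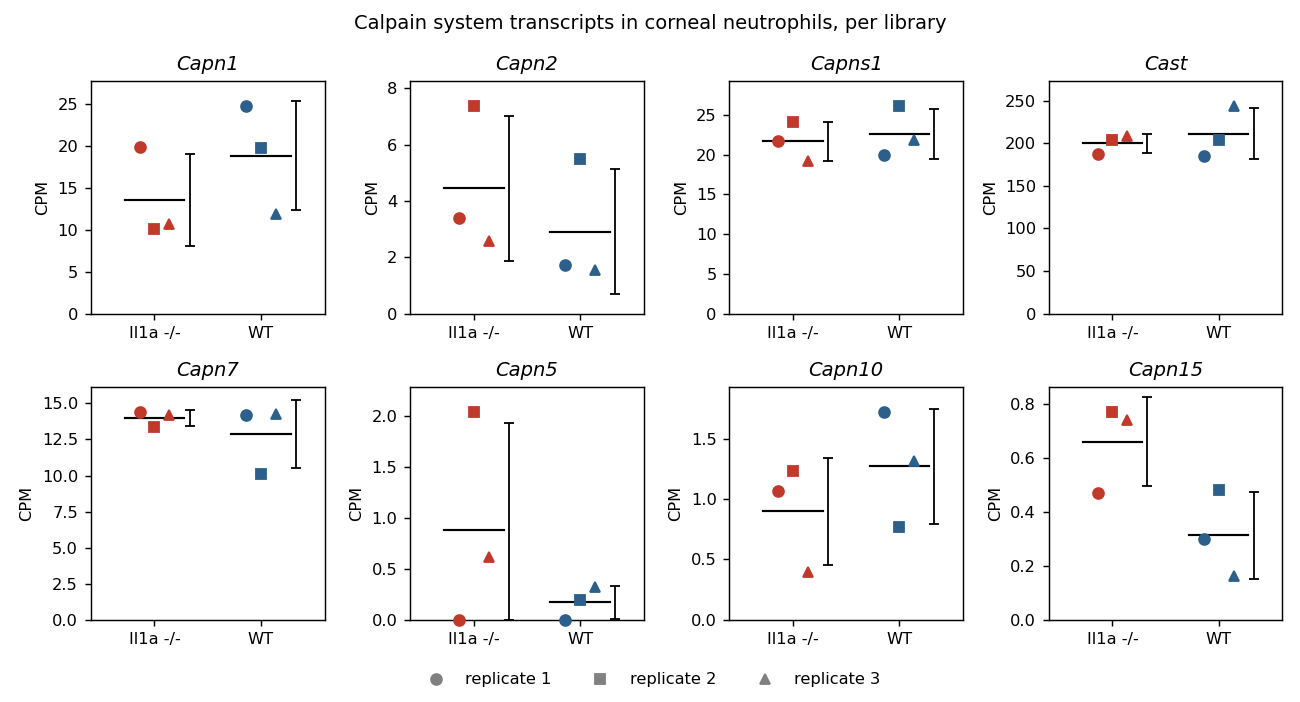
Level of each member in CPM (vertical axis, from 0, scaled for each gene) in the 3 knockout (red, left) and 3 wild-type (blue, right) libraries. Symbols mark the replicate number, horizontal lines the group mean and vertical bars 1 SD to either side, ending at 0 where they would pass below it. The groups overlap for all 8 genes. Relative to the mean, the spread within a genotype is narrow for Cast, Capns1 and Capn7. It is wide for Capn1, Capn2, Capn5 and Capn10 in both genotypes and for Capn15 in wild type.

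The catalytic subunit Capn1 (ENSMUSG00000024942, GRCm38 chromosome 19, 5988545 to 6015897, minus strand) had the highest mean CPM of the 6 proteases over all libraries, although Capn7 was above it in knockout replicates 2 and 3 and wild-type replicate 3. Its level was 19.96, 10.1 and 10.7 CPM in knockout replicates 1, 2 and 3 and 24.8, 19.8 and 11.9 CPM in wild-type replicates 1, 2 and 3. Knockout replicate 1 lay with the 2 higher wild-type libraries, and wild-type replicate 3 lay with the 2 lower knockout libraries. The means were 13.6 ± 5.5 CPM in the knockout and 18.8 ± 6.5 CPM in wild type (SD, n = 3 each), with a log2 fold change of -0.47 (SE 0.32, 95% interval -1.17 to 0.23, edgeR adjusted p = 0.93). The estimate moved to -0.86 without knockout replicate 1 (unadjusted p = 0.015, adjusted p = 0.44) and to -0.71 without wild-type replicate 3 (unadjusted p = 0.040, adjusted p = 0.81), and over the 14 alternatives run the adjusted p was never below 0.44. The size of the difference thus changed with single libraries. On the log2 scale Capn1 varied by 0.50 about its own mean over the 6 libraries (root mean square), more than 96.2% of the 5663 tested genes that averaged 5 CPM or more, whose median was 0.19.

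Capn2 (ENSMUSG00000026509, chromosome 1, 182467260 to 182517608, minus strand), the other classical large subunit, was scarcer. Its level was 3.39, 7.37 and 2.58 CPM in knockout replicates 1, 2 and 3 and 1.72, 5.47 and 1.54 CPM in wild-type replicates 1, 2 and 3. Replicate 2 was the highest library in each genotype. The means were 4.45 ± 2.56 CPM in the knockout and 2.91 ± 2.22 CPM in wild type (SD, n = 3 each), with a log2 fold change of 0.61 (SE 0.54, 95% interval -0.59 to 1.81, edgeR adjusted p = 0.94). Without knockout replicate 2 the log2 fold change was 0.026, and without wild-type replicate 2 it was 1.45 (unadjusted p = 0.016, adjusted p = 0.97).

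Knockout replicate 2 and wild-type replicate 2, the libraries with the most Capn2, also had the highest summed level of corneal epithelial markers. Of the 9 epithelial markers 8 were detected in at least 1 library of each genotype, Capn8 was at 0 in every library, and 0 of the 6 tested were called. Their summed level was 25.5, 100.03 and 31.8 CPM in knockout replicates 1, 2 and 3 and 16.8, 133 and 62.7 CPM in wild-type replicates 1, 2 and 3. Knockout replicate 2 and wild-type replicate 2 were the highest of their genotype in this sum as in Capn2. Wild-type replicate 3 was next in the sum but had the lowest Capn2 level, 1.54 CPM. In wild type Aldh3a1 and Pax6 were highest in replicate 3, and the other detected markers in replicate 2. Krt14 at 85.6 CPM and Krt5 at 31.2 CPM made up most of the sum in wild-type replicate 2. The 8 stromal markers summed to 12.4 to 41.8 CPM in the knockout and 19.7 to 36.7 CPM in wild type. Their sum was highest in knockout replicate 2 and wild-type replicate 3, and was 21.2 CPM in wild-type replicate 2. The keratin gene Krt14, the most abundant epithelial marker, was at 34.2 ± 26.2 CPM in the knockout and 41.9 ± 39.5 CPM in wild type (SD, n = 3 each). The part of these other cells in the Capn2 values was not tested. In sorted bulk samples, a different share of another cell type and a different amount of RNA per cell cannot be told apart.

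RNA of macrophage genes was present as well. The 14 monocyte and macrophage markers, all detected, summed to 685 to 712 CPM in the knockout and 558 to 609 CPM in wild type. Cd68, Csf1r and Adgre1 made up 92.5% of that sum. The remaining 11 markers summed to 31.1, 98.9 and 73.6 CPM in knockout replicates 1, 2 and 3 and 28.8, 29.5 and 27.1 CPM in wild-type replicates 1, 2 and 3, a split made after the values were seen. Of the 14, 0 were called by edgeR, 8 had an unadjusted p under 0.05 (5.99% of all tested genes did), the groups did not overlap for 6 (11.6% of all tested genes), and the median log2 fold change was 1.67. Their part in the levels of the calpain genes was not tested. Endothelial markers summed to at most 7.17 CPM in the knockout and 10.8 CPM in wild type, T and NK cell markers to at most 1.398 CPM in the knockout and 1.68 CPM in wild type, and B cell markers to at most 0.493 CPM in the knockout and 0.161 CPM in wild type. Cd3e, Nkg7, Ncr1, Klrb1c and Cd79b were at 0 in every library.

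The small subunit Capns1 (ENSMUSG00000001794, chromosome 7, 30186936 to 30198811, minus strand), the partner of both large subunits, was steadier. Its level was 21.7, 24.1 and 19.2 CPM in knockout replicates 1, 2 and 3 and 19.9, 26.1 and 21.8 CPM in wild-type replicates 1, 2 and 3. The 2 sets of values covered nearly the same range. The means were 21.7 ± 2.5 CPM in the knockout and 22.6 ± 3.2 CPM in wild type (SD, n = 3 each). The log2 fold change of -0.06 had a 95% interval from -0.43 to 0.31, which leaves room for a level between 0.743 and 1.24 times that of wild type (edgeR adjusted p = 0.99). The root mean square difference between its centred log2 CPM and that of Capn1 was 0.52, beside a median of 0.53 between Capn1 and all genes compared.

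The inhibitor Cast (ENSMUSG00000021585, chromosome 13, 74692368 to 74808810, minus strand) had by far the highest CPM of the members. Per kilobase of merged exons its mean level was 2.00 times that of Capns1, the next member. Its level was 188, 204 and 209 CPM in knockout replicates 1, 2 and 3 and 185, 204 and 244 CPM in wild-type replicates 1, 2 and 3. The knockout values lay within the wild-type range. The means were 200.1 ± 11.2 CPM in the knockout and 211 ± 30 CPM in wild type (SD, n = 3 each), with a log2 fold change of -0.08 (SE 0.13, edgeR adjusted p = 0.97). The 95% interval, from -0.36 to 0.21, was the narrowest of the set and corresponds to 0.778 to 1.16 times the wild-type level. Cast ranked 633rd by mean CPM among the 11924 tested genes. Of all pairs of tested members, Cast and Capns1 were the most alike over the libraries, with a root mean square difference of 0.19 between their centred log2 CPM, and Cast and Capn7 followed at 0.22. The median distance of all genes compared was 0.22 to Cast and 0.24 to Capns1, so these distances are near those of any gene.

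**Figure D2:**
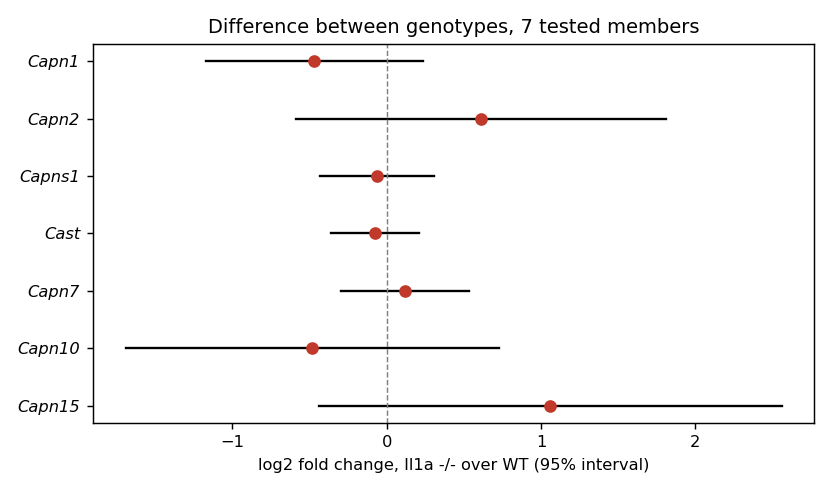
Log2 fold change of the 7 tested members (horizontal axis, knockout over wild type) with its 95% interval from edgeR's quasi-likelihood fit. Every interval crosses 0, and the intervals run from -0.36 to 0.21 for Cast up to -0.44 to 2.56 for Capn15.

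Capn7 (ENSMUSG00000021893, chromosome 14, 31336638 to 31371986, plus strand) encodes an atypical calpain that binds ESCRT-III, the membrane-cutting machinery of endosomes. Its level was 14.4, 13.4 and 14.2 CPM in knockout replicates 1, 2 and 3 and 14.2, 10.1 and 14.3 CPM in wild-type replicates 1, 2 and 3. Wild-type replicate 2 was the only library below 13 CPM. The means were 14.0 ± 0.6 CPM in the knockout and 12.9 ± 2.4 CPM in wild type (SD, n = 3 each), with a log2 fold change of 0.12 (95% interval -0.29 to 0.53, edgeR adjusted p = 0.97).

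The other proteases had low counts. Capn10 (ENSMUSG00000026270, chromosome 1, 92934376 to 92947941, plus strand), whose human counterpart is known from studies of type 2 diabetes, had 34, 40 and 9 counts in knockout replicates 1, 2 and 3 and 46, 24 and 41 in wild-type replicates 1, 2 and 3, which made 0.898 ± 0.445 CPM in the knockout and 1.27 ± 0.48 CPM in wild type (SD, n = 3 each). Its 95% interval, from -1.69 to 0.72 on the log2 scale, spans a range from 0.310 to 1.65 times the wild-type level (edgeR adjusted p = 0.96). Capn15 (ENSMUSG00000037326, chromosome 17, 25958364 to 25985796, minus strand), the mammalian relative of the fly gene small optic lobes, had 15, 25 and 17 counts in the knockout libraries and 8, 15 and 5 in the wild-type libraries, or 0.662 ± 0.165 CPM in the knockout and 0.314 ± 0.162 CPM in wild type (SD, n = 3 each). Wild-type replicate 2, at 0.483 CPM, lay above knockout replicate 1, at 0.472 CPM. The log2 fold change of Capn15 was 1.06 (SE 0.68, 95% interval -0.44 to 2.56, edgeR adjusted p = 0.92). Its summed counts were 57 in the knockout and 28 in wild type, a ratio of 2.08 after scaling for library size. The 95% exact counting interval ran from 1.299 to 3.39. That interval treats each read as independent and leaves out the spread between libraries.

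Capn5 (ENSMUSG00000035547, chromosome 7, 98121559 to 98178274, minus strand), known in humans for an inherited inflammatory disease of the retina and vitreous, had 0, 66 and 14 counts in knockout replicates 1, 2 and 3 and 0, 6 and 10 in wild-type replicates 1, 2 and 3. A count of 0 was taken to allow up to 3 counts, or 0.0943 CPM in knockout replicate 1 and 0.112 CPM in wild-type replicate 1. This limit covers counting error alone and leaves out the spread between libraries. The summed counts were 80 in the knockout and 16 in wild type, a ratio of 5.10 after scaling for library size. The 95% exact counting interval ran from 2.96 to 9.35, and it too treats each read as independent and leaves out the spread between libraries. Knockout replicate 2 supplied 66 of the 80, and it was also the highest knockout library in the epithelial and stromal sums and in the sum of the 11 macrophage markers given above, whose part in the Capn5 counts was not tested.

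Levels of different genes can be set beside each other only per length, and here CPM was divided by the length of the merged exons in kilobases. In this scale Cast was first with 17.4 ± 1.0 in the knockout and 18.4 ± 2.6 in wild type, followed by Capns1 with 8.75 ± 1.00 in the knockout and 9.14 ± 1.29 in wild type (CPM per kilobase, SD, n = 3 each). Capn1 had 4.07 ± 1.65 in the knockout and 5.63 ± 1.95 in wild type, and Capn7 had 2.86 ± 0.11 in the knockout and 2.63 ± 0.48 in wild type. Each of these 4 lay above the next in all 6 libraries, and their ranges did not overlap. Capn2 came next with 0.701 ± 0.404 in the knockout and 0.459 ± 0.350 in wild type. Capn2, Capn10, Capn5 and Capn15 followed each other at a mean of 0.580, 0.250, 0.0961 and 0.0852 CPM per kilobase over the 6 libraries, and the ranges of neighbours in that order overlapped. Cast made up 50.5% and Capns1 25.2% of the summed per-length level of the 8 genes, while Capn2, Capn5, Capn10 and Capn15 together stayed behind Capn7. With the longest transcript in place of the merged exons the order was the same, and only the ranges of Capn7 and Capn2 came to overlap.

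**Figure D3:**
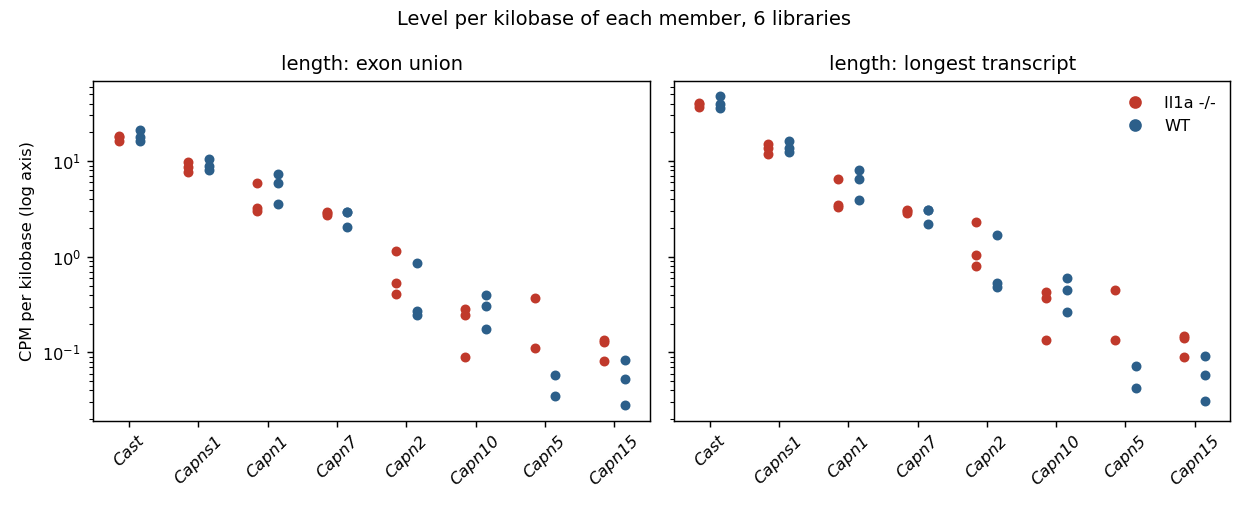
CPM per kilobase (vertical axis, logarithmic) of the 8 members in each library, knockout in red on the left and wild type in blue on the right of each pair, with gene length taken as merged exons (left panel) or the longest transcript (right panel). Cast, Capns1, Capn1 and Capn7 keep their order in both panels; Capn5 is at 0 in knockout replicate 1 and wild-type replicate 1, which a logarithmic axis cannot show.

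The balance of large subunits, small subunit and inhibitor was compared as 3 ratios of per-length levels, each tested with a two-sided exact permutation test over libraries, in which 3 against 3 cannot give a p below 0.1. Capn1 made up 91.8%, 72.2% and 88.8% of the Capn1 and Capn2 total in knockout replicates 1, 2 and 3, and 96.5%, 87.3% and 93.6% in wild-type replicates 1, 2 and 3. It was the main large subunit in every library, with 84.2% ± 10.5 in the knockout and 92.5% ± 4.7 in wild type (SD, n = 3 each; exact permutation p = 0.3, adjusted over the 3 ratios 0.8). With the longest transcript as length this share was lower, at 75.5% ± 14.5 in the knockout and 87.4% ± 7.4 in wild type. In knockout replicate 2 it was then 59.0%. The share uses the unstranded counts, in which Capn2 shares more of its exon sequence with an antisense gene than Capn1 does. Capns1 stood at 1.94 ± 0.52 times the sum of Capn1 and Capn2 in the knockout and 1.64 ± 0.64 times in wild type (SD, n = 3 each; exact permutation p = 0.6, adjusted 0.8). Cast stood at 3.93 ± 1.29 times that sum in the knockout and 3.44 ± 1.88 times in wild type (SD, n = 3 each; exact permutation p = 0.8, adjusted 0.8). The Cast ratio was lowest in replicate 1 of each genotype, at 2.51 in the knockout and 2.10 in wild type, and highest in replicate 3 of each, at 5.03 in the knockout and 5.59 in wild type. With the longest transcript as length it was 7.12 ± 2.30 in the knockout and 6.63 ± 3.68 in wild type, so the height of this ratio depends on the length used. These are ratios of transcripts and say nothing of protein amounts.

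Among the tested genes of at least 5 CPM, those closest to Capn1 in pattern over the 6 libraries were Lrg1, which encodes leucine-rich alpha-2-glycoprotein, and Cox19, a factor for assembly of cytochrome oxidase, with root mean square differences of 0.077 and 0.080 in centred log2 CPM. Lrg1 averaged 434 CPM in the knockout and 591 CPM in wild type. The nearest to Capns1 were Ap2a1, a clathrin adaptor gene, and Gtf2e2, a general transcription factor gene, at 0.043 and 0.053, and the nearest to Cast were Nap1l4, a histone chaperone gene, and Sra1 at 0.020 and 0.029. With 5327 genes compared over 6 libraries, close neighbours are found for most genes, and these are given as a description.

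Part of the counts of several members can be lost where they share exon sequence with a gene on the opposite strand. Strand is not recorded by the library kit, and reads that fall in both genes are left out of the unstranded count. Capn2 shared 1717 exon bases (27.1% of its merged exons) with the antisense gene Gm37885, Capn15 shared 1119 (19.5%) with D630044L22Rik and Gm26694, Capn10 shared 639 (14.7%) with 9430060I03Rik and Capn1 shared 394 (11.8%) with Gm10814. Cast shared 834 bases (7.27%) with the end of Erap1, a peptidase gene of antigen processing. Adding the reads of either strand credits a read in shared sequence to both genes, so the sums give an upper limit to what a member lost. In these sums counts grew by a factor of 1.13 to 1.21 for Capn1, 1.29 to 1.54 for Capn2 and 1.33 to 2.20 for Capn15. The factor was no more than 1.0056 for Cast and 1.026 for Capns1. From these sums the log2 fold changes were -0.49 for Capn1, 0.62 for Capn2, 1.23 for Capn15 and -0.07 for Cast. In that fit 0 of the 7 were called (edgeR), and the share called over all genes is not given here.

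Of the other calpain family genes, Adgb had the smallest p. It encodes androglobin, a protein known from testis that joins a calpain-like domain to a globin. Adgb (ENSMUSG00000050994, chromosome 10, 10335703 to 10472326, minus strand) had 30.3, 43.4 and 39.7 CPM in knockout replicates 1, 2 and 3 and 22.98, 17.5 and 23.03 CPM in wild-type replicates 1, 2 and 3. All knockout libraries lay above all wild-type libraries. The log2 fold change was 0.84 (SE 0.18, unadjusted p = 0.00085), and Adgb did not pass the test over all genes (edgeR adjusted p = 0.24). It was called without the low-count filter (edgeR adjusted p = 0.0012) and by DESeq2 (adjusted p = 0.0067), and its adjusted p was 0.088 to 0.83 in the other 12 alternatives. Counts at gene level do not show which exons the Adgb reads cover.

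The remaining relatives were scarce. Capns2, a second small subunit gene, was at 5.78 ± 1.55 CPM in the knockout and 5.56 ± 0.31 CPM in wild type (SD, n = 3 each), and Capn11 was at 0.664 ± 0.569 CPM in the knockout and 0.398 ± 0.272 CPM in wild type. Capn3, the muscle calpain, had 5 to 22 counts in the knockout libraries and 4 to 7 in the wild-type libraries, and Capn12 and Capn13 had at most 21 in the knockout and 12 in wild type. Capn6, Capn8 and Capn9 had 0 counts in every library. Of the 10 genes on this list 9 were matched and 3 tested. Of these 0 were called (0.101% of all tested genes were), with 1 at an unadjusted p under 0.05 (5.99% of all tested genes).

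Among calpain substrates of the cytoskeleton and of adhesion, 0 of 19 tested genes were called, beside 0.101% of all tested genes. An unadjusted p under 0.05 was found for 2 of the 19, beside 5.99% of all tested genes, and their median log2 fold change was -0.02. Itgb2, the beta subunit of the neutrophil integrins, was at 815 ± 66 CPM in the knockout and 753 ± 17 CPM in wild type, and Ezr, which links membrane and actin, was at 615 ± 12 CPM in the knockout and 557 ± 28 CPM in wild type (SD, n = 3 each). The small GTPase gene Rhoa was at 321 ± 19 CPM in the knockout and 310.3 ± 27.99 CPM in wild type. The smallest p in this list belonged to Itgb1, the integrin beta 1 gene, at 189.7 ± 18.2 CPM in the knockout and 150.5 ± 11.4 CPM in wild type (edgeR adjusted p = 0.75). The next smallest p-values were those of the focal adhesion kinase gene Ptk2 at 0.411 ± 0.176 CPM in the knockout and 1.04 ± 0.43 CPM in wild type, and the vinculin gene Vcl at 26.2 ± 2.7 CPM in the knockout and 32.1 ± 5.6 CPM in wild type.

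Among substrates tied to cell death, autophagy and signalling, 0 of 12 tested genes were called, beside 0.101% of all tested genes. An unadjusted p under 0.05 was found for 3 of the 12, beside 5.99% of all tested genes, and their median log2 fold change was 0.01. Xiap, a caspase inhibitor, was at 32.3 ± 4.0 CPM in the knockout and 21.9 ± 3.2 CPM in wild type (SD, n = 3 each; edgeR adjusted p = 0.57). The death effectors Bax and Bid were at 30.5 ± 1.7 and 23.9 ± 2.3 CPM in the knockout, against 23.7 ± 0.3 CPM for Bax and 29.8 ± 1.3 CPM for Bid in wild type. Bcl2l1, a survival gene, was at 672 ± 10 CPM in the knockout and 668 ± 75 CPM in wild type. Nfkbia, the NF-kB inhibitor, was at 7848 ± 195 CPM in the knockout and 8828 ± 127 CPM in wild type, and the phosphatase gene Ptpn1 at 279 ± 30 CPM in the knockout and 262 ± 24 CPM in wild type.

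Classical calpains act when bound to calcium. Of 22 tested genes for calcium entry, stores and pumps 0 were called, beside 0.101% of all tested genes. An unadjusted p under 0.05 was found for 5 of the 22, beside 5.99% of all tested genes, and their median log2 fold change was 0.06. Calm2, a calmodulin gene, was at 246 ± 74 CPM in the knockout and 317 ± 46 CPM in wild type (SD, n = 3 each). The calcium pump gene Atp2b1 was at 374 ± 40 CPM in the knockout and 324 ± 62 CPM in wild type. Itpr3, a receptor that releases stored calcium, had the smallest p of the list with 1, 4 and 0 counts in the knockout libraries and 16, 23 and 25 in the wild-type libraries (edgeR adjusted p = 0.46). P2rx4, an ATP-gated channel gene, was at 32.4 ± 3.9 CPM in the knockout and 23.1 ± 3.2 CPM in wild type, and the pump gene Atp2b4 at 1.02 ± 0.24 CPM in the knockout and 0.297 ± 0.128 CPM in wild type. Knockout and wild-type libraries did not overlap for 5 of the 22 calcium genes, 4 of the 12 death and signalling genes and 3 of the 19 cytoskeleton and adhesion genes, beside 11.6% of all tested genes.

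Among genes of pro-IL-1 alpha and of its other proteases and partners, 5 of 10 were tested and Il1a itself was the 1 called gene, at 4.47 ± 1.37 CPM in the knockout and 6696 ± 1881 CPM in wild type (SD, n = 3 each; log2 fold change -10.55, edgeR adjusted p = 5.3e-07). Without Il1a the other 4 had log2 fold changes from -0.21 to 0.14. The caspase gene Casp4 was at 241 ± 36 CPM in the knockout and 219 ± 20 CPM in wild type. Il1r2, the decoy receptor, which also binds the precursor inside cells, was at 1661 ± 292 CPM in the knockout and 1726 ± 211 CPM in wild type. S100a13, a carrier in the release of IL-1 alpha, was at 5.01 ± 0.59 CPM in the knockout and 5.78 ± 0.71 CPM in wild type.

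**Figure D4:**
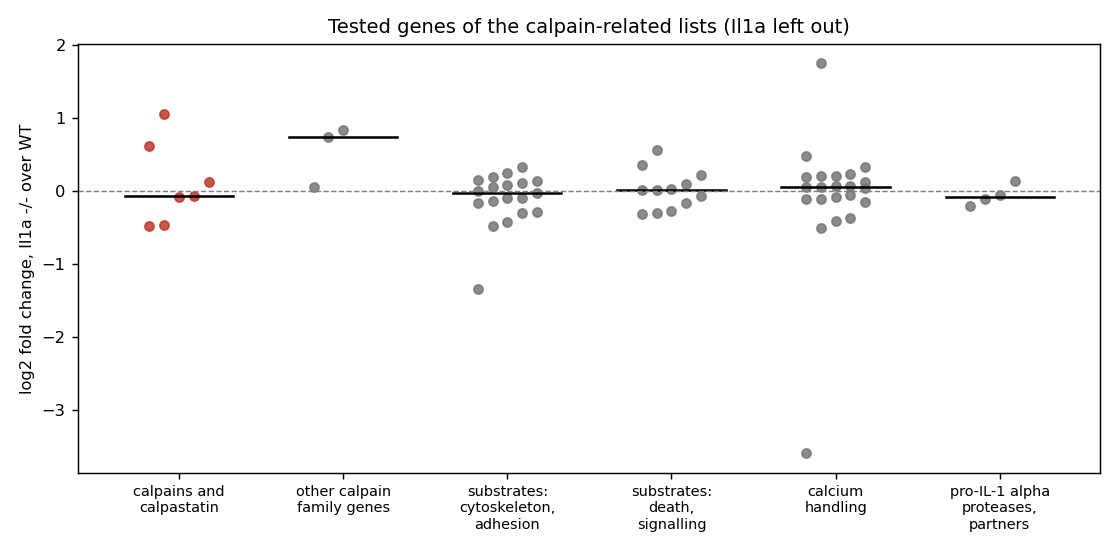
Log2 fold change (vertical axis, knockout over wild type) of each tested gene of the calpain members (red) and of 5 related lists (grey), with Il1a left out and the list median as a black line. The medians lie between -0.08 and 0.06 except for the 3 other calpain family genes at 0.74, and 0 of the genes drawn were called; the lowest points are Itpr3 at -3.60 and Ptk2 at -1.35 and the highest is Atp2b4 at 1.75.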

How the data were processed

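RNA of 3 knockout and 3 wild-type libraries was prepared, per the labels' protocols, with a column kit and the SMART-Seq v4 low-input kit. Tools named in the submitters' processing notes are FastQC 0.11.9, Trimmomatic 0.39 and STAR 2.7.8a, with the builds GRCm38 and mm10. Which annotation and filters were applied is not given in the sources used here. Gene counts were deposited as whole numbers without normalization, in an unstranded column, used here, and 2 columns by strand. GENCODE M21 gave symbols, positions and lengths for 54809 of 54838 genes and may not be the authors' release; of 144 list entries 143 matched.

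Genes were kept by edgeR's expression filter (11924 genes, 99.9% of counts), scaled by TMM and tested knockout against wild type with edgeR 4.0.16 (robust quasi-likelihood test, R 4.3.3), with Benjamini-Hochberg adjustment over all tested genes and a threshold of 0.05. P-values printed as adjusted come from this fit unless another tool is named. Log2 CPM used a prior count of 3. The test was checked on simulated counts. Members and lists were chosen with earlier results of these data known. Named from each list were up to 3 genes with the smallest p and up to 3 with the highest CPM, and from marker lists the 3 highest; 1 gene under this rule is not reported here. The other calpain genes and the other markers named, with those at 0, were added after their values were seen. Alternatives were DESeq2 size factors, library size alone, no filter, 5 CPM in 3 libraries, a replicate block, each library left out, strand columns, DESeq2 1.42.0 and limma-voom (limma 3.58.1). Reading frames were the longest from start to stop codon (Biopython 1.88), searched with blastn 2.17.0. Exact intervals of summed counts treat each read as independent and leave out the spread between libraries. No molecular tags were recorded, so amplified copies count as separate reads and these intervals may be too narrow even for counting error.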

Additional observations from a re-analysis of the deposited data

How the results depend on the processing

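The 14 alternative fits gave 95 values for the 7 tested members, and 0 of these values were called. Capn1 and Capn10 stayed below 0 and Capn2 and Capn15 above 0 in each fit that tested them. With single libraries left out the log2 fold change ran from -0.86 to -0.23 for Capn1, from 0.026 to 1.45 for Capn2, from -0.78 to -0.14 for Capn10 and from 0.74 to 1.51 for Capn15. The sign changed in 4 of the 95 values, with ranges from -0.16 to 0.053 for Capns1, -0.029 to 0.20 for Capn7 and -0.18 to 0.038 for Cast. The difference in the log2 Capns1 ratio ran from -0.0094 to 0.57, that in the log2 Cast ratio from -0.020 to 0.69 and that in the Capn1 share from -11.97 to -2.18 percentage points. The 2 ratios turned negative only without wild-type replicate 1. The number of called genes was 7 to 24 with a library left out, 185 without a low-count filter, 21 with at least 5 CPM in 3 libraries and 70 by DESeq2, and the causes were not tested. The low-count filter removed Capn2, Capn10 and Capn15 at 5 CPM, so that fit gave no value for them. Other named genes with a sign change were all uncalled where it occurred. With libraries left out they ran from -0.039 to 0.091 for Rhoa, -0.096 to 0.059 for Bcl2l1, -0.0057 to 0.14 for Ptpn1, -1.14 to 0.77 for Krt14, -0.077 to 0.25 for Capns2, -0.22 to 0.018 for Il1r2, -0.33 to 0.26 for Col1a1, -0.53 to 1.04 for Col1a2, -3.32 to 1.73 for Plvap, -1.51 to 0.98 for Emcn and -0.96 to 0.69 for Aldh3a1. Csf3r gave 0.013 by library size alone, Bcl2l1 -0.0015 without a filter and -0.00047 by DESeq2, and limma-voom gave -0.13 for Capn11, -0.031 for Col1a1 and 0.24 for Emcn.

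A replicate block raised the number of called genes to 20, called 0 of the members and gave -0.026 for Col1a1. In the ratios an exact sign-flip test over same-numbered libraries, which with 3 pairs cannot go below 0.25, gave 0.25, 0.5 and 0.5. The deviations of same-numbered libraries correlated at 0.14, 0.057 and 0.0034 across genes, and not every library correlated best with its own number, so the numbers were not taken to pair the libraries. Capn5, Capn10 and Capn15 rest on 0 to 66 counts per library, and the parts of counting error and of spread between libraries in their values were not separated.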
